A study of Mus musculus with 36 samples.

Results

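A set of 144 array probes was described that differed with tamoxifen in primary mouse embryonic fibroblasts (MEFs) carrying a Zscan4ERT2 transgene and differed little in wild MEFs given the same labels. Members were chosen from the deposited series matrix, which holds log10 brightness of the sample for 25030 probes. A member had 2 tamoxifen-treated and 2 untreated transgenic arrays that did not overlap, group means at least 0.15 apart (1.41-fold), wild MEF means under 0.05 apart (1.12-fold), and a higher transgenic mean of at least 2.3. Of the members, 85 were higher with tamoxifen (risers) and 59 were lower (fallers). They made up 0.575% of the probes, 0.34% for risers and 0.236% for fallers. Since these values chose the members, the differences in primary MEFs are given as a description, with no test.

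RNA of mouse cells was measured on 36 Agilent arrays in 18 groups of 2, each sample in Cy3 against a shared reference in Cy5. The reference was made of RNA pooled from cultured mouse cell lines and of RNA from 129 embryonic stem (ES) cells. The primary MEFs came from F1 hybrids of V6.5 ES cells, either with the Zscan4ERT2 transgene (labelled MEF2 ZERT2) or wild (labelled MEF3), and were grown in MEF medium without tamoxifen (Tmx-) or with it (Tmx+, 200 nM in the transgenic protocol). The secondary MEFs, all labelled as clone 1 of a second-generation line with KOS and ZERT2 transgenes on a C57Bl/6 and 129 hybrid background, were grown in ES medium with LIF. They were given neither drug, tamoxifen at 200 nM, doxycycline (Dox) at 1.5 µg/ml, or both, for 1, 3 or 6 days. The remaining groups were induced pluripotent stem (iPS) cells of clone 2 with the KOS and ZERT2 transgenes and V6.5 ES cells grown with LIF, neither given a drug label. The protocols of the wild MEFs labelled Tmx+, and of replicate 2 of the day 1 Dox- Tmx+ cultures, name no tamoxifen. No label states whether the paired arrays of a group hold RNA of different cultures, and p-values cover the spread between those arrays, which may be technical. In whole cultures, fewer cells of a type and less RNA per cell cannot be told apart.

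Zscan4 is a family of nuclear proteins with a SCAN domain and zinc fingers, made in early cleavage-stage mouse embryos and, at any moment, in a small fraction of ES cells. Fusion to ERT2, a mutated estrogen receptor domain, holds a protein inactive until a tamoxifen compound binds it, so that a transgene can be made constantly and its product switched on by drug. KOS stands for the reprogramming factors Klf4, Oct4 and Sox2, which turn fibroblasts into iPS cells, and doxycycline switches on transgenes under a tetracycline-controlled promoter. The title of the series names the question, whether Zscan4 brings early embryonic genes back while iPS cells form.

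The scanner files pair no probe with a gene symbol, and no table at hand joined these identifiers to genes. Members are therefore named by probe identifier, what each gene does is not given, and the defining markers of fibroblasts or stem cells could not be looked up. The probes are oligonucleotides of 60 bases, printed 5′ to 3′ as the scanner files give them. The sequences that follow are of 1 faller and 2 risers that moved far in the same direction in a separate experiment, the secondary MEFs.
Z00021771-1 (faller): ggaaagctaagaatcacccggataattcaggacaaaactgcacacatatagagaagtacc
Z00025437-1 (riser): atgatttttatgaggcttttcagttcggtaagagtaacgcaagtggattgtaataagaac
Z00022867-1 (riser): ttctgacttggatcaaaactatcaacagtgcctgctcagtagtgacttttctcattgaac

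Another 2 members moved furthest against their class in the secondary MEFs, and each shared a stretch of sequence with a probe outside the set, shown here in capitals. The shared stretch was 29 or 30 of the 60 bases, so each partner held only part of the same letters, on another spot. Whether the probes of a pair read 1 transcript was not known.
Z00055704-1 (riser): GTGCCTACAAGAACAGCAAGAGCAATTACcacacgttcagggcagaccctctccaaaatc
Z00023830-1 (not a member): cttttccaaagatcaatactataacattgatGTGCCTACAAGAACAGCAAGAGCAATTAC
Z00034075-1 (faller): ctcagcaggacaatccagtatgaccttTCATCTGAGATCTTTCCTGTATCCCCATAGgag
Z00070676-1 (not a member): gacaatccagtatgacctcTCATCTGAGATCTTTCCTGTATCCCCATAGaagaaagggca

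In the transgenic primary MEFs, the risers differed by a median of 0.187 in log10 brightness, or 1.54-fold, and by 0.442, or 2.77-fold, at most. The fallers differed by a median of -0.191, or 1.55-fold, and by -0.371, or 2.35-fold, at most. The riser with the largest difference, Z00022511-1, read 2.00 and 2.07 without tamoxifen and 2.46 and 2.49 with it. Its 4 wild MEF values, from 2.21 to 2.34, lay between those pairs. The faller with the largest difference, Z00048802-1, read 2.59 and 2.70 without tamoxifen and 2.27 on both arrays with it. Its wild MEF values ran from 2.41 to 2.55. The next faller, Z00022647-1, read 2.69 and 2.64 without tamoxifen and 2.41 and 2.27 with it, the treated pair below all wild values of 2.44 to 2.66.

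**Figure D1:**
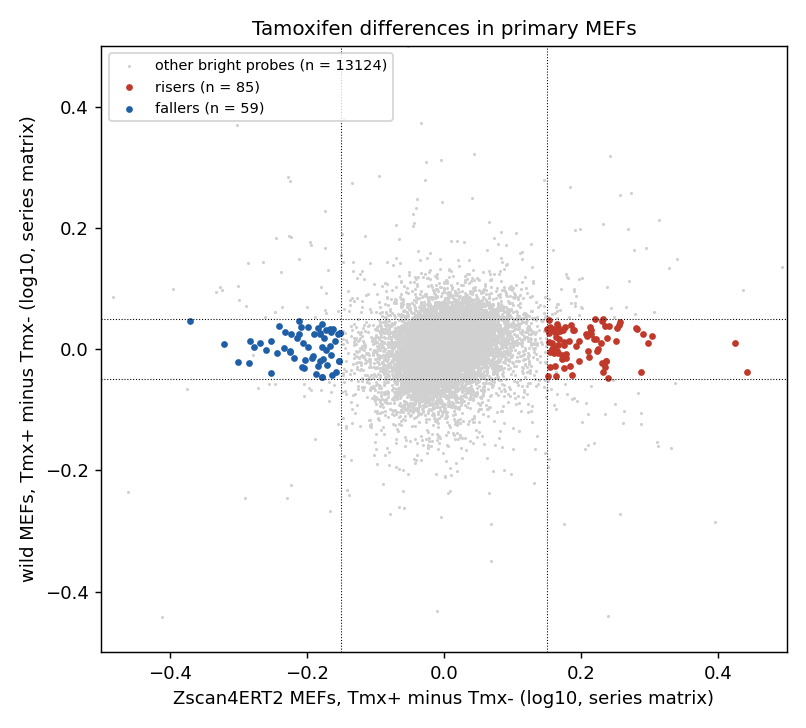
Difference between Tmx+ and Tmx- group means in Zscan4ERT2 MEFs (x axis, log10) against the same difference in wild MEFs (y axis, log10), 1 point a probe, from the series matrix. Grey points are the other probes past the brightness minimum, 8 of which lie outside the axes; red points are the 85 risers, blue points the 59 fallers, and dotted lines the limits of 0.15 and 0.05.

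Before treatment the members lay on either side of wild MEFs. The untreated transgenic mean was within the range of the 4 wild arrays for 21 risers and 12 fallers, and the quartiles of the untreated log2 ratio against wild MEFs were -0.22 and 0.15 for risers and -0.18 and 0.24 for fallers, wider than -0.12 and 0.097 for bright probes. Untreated transgenic MEFs differed from the wild mean by a median of -0.048 for risers and 0.023 for fallers on the log10 scale, against 0.154 and -0.170 after tamoxifen. The treated arrays lay beyond all 4 wild arrays for 62 risers and 45 fallers. The counts against the range of the wild arrays, and the quartiles, use arrays that chose the members. The rule therefore partly fixed them, the wider spread of untreated members included. Other probes were not counted in this way, and the counts are a description only. At the edge of the rule, the risers nearest to the threshold were Z00031900-1 at 0.15045 and Z00074575-1 at 0.152, and the nearest probes left out were Z00023158-1 at 0.14965 and Z00025951-1 at 0.149. Among fallers the nearest inside were Z00023234-1 and Z00035791-1, both at -0.152, and the nearest outside were Z00053931-1 at -0.148 and Z00025217-1 at -0.147. The limit therefore cut through a continuous run of values. One array weighed on the counts: without treated transgenic replicate 1 the rule found 152 risers and 97 fallers, of which 81 and 50 were members.

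With the lines exchanged, the same rule found 51 probes, or 0.204%, of which 19 were higher and 32 lower in wild MEFs labelled Tmx+. The step on size alone passed 2288 probes (9.14%) in transgenic and 2324 (9.28%) in wild MEFs. With arrays that did not overlap and the brightness minimum added, 282 (1.13%) and 152 (0.607%) remained. Each primary MEF group sat on a slide of its own. Transgenic Tmx- arrays were scanned on scan day 1, transgenic Tmx+ arrays on scan day 2 and all wild arrays on scan day 3, so slide and scan day cannot be told apart from tamoxifen in the transgenic line. The wild difference crosses slides within 1 scan day. For both Tmx+ groups the array position in the labels also differs by 1 from that in the file header, while the slide is the same in both.

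The scanner intensities of the same 4 transgenic arrays can also be read as log2 of sample over reference. On that scale the risers differed by a median of 0.43 and the fallers by -0.52, and the sign was that of the rule for 81 of 85 risers and 58 of 59 fallers. As the same arrays chose the members, this sharing of sign is no separate evidence. It was not counted for other probes. The limit of the rule, 0.498 on the log2 scale, was reached by 30 risers and 33 fallers. By channel, the sample differed by medians of 0.35 and -0.45 and the reference by -0.011 and -0.0066. In 13 risers and 8 fallers the reference moved more than the sample, among them the faller Z00022647-1, with -0.18 in the sample and 0.36 in the reference. In the riser Z00025977-1, the ratio was 2.58 and 2.27 without tamoxifen, 3.11 and 3.49 with it, and 2.26 to 2.37 in wild MEFs. In the faller Z00050331-1, it was -1.57 and -1.44 without tamoxifen, -2.45 and -2.38 with it, and -1.40 to -1.33 in wild MEFs. Those 2 probes, named after their values were seen, were among the members furthest apart on both scales.

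Several of the largest differences in the matrix were not of that kind. The riser Z00075737-1, second by size with 0.424, differed by 0.03 in log2 ratio, and Z00048802-1, first among fallers, differed by 0.44 in the opposite direction. In the matrix both carried 1 identical value, to 4 decimals, on the 2 arrays of a group. This held for 7 risers (8.24%) and 9 fallers (15.3%) in at least 1 of the 2 transgenic groups, and for 397 of the 13268 probes past the brightness minimum, or 2.99%. Of these 16 members, 1 reached the limit of the rule in the scanner ratio. That 1 was Z00004586-1, which read 2.50 on both untreated arrays in the matrix but -1.05 and 0.82 in the ratio, with -1.24 and -1.27 in the treated pair. Its difference of -1.14 therefore rested on a single untreated array. How the matrix came to hold such pairs is not given in the sources used here.

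In every group of secondary MEFs, iPS and ES cells, the quartiles of both classes lay further apart than those of bright probes, and the classes did not stay apart. In primary MEFs the rule shaped the spread, as it asked for a large transgenic difference and a small wild one. Against the mean of the 4 wild MEF arrays, the median riser stood at -0.04 (log2 ratio) in untreated and 0.29 in treated transgenic MEFs, and the median faller at 0.042 and -0.36. In secondary MEFs without drugs the riser and faller medians were -0.44 and -0.21 (day 1), both -0.12 (day 3), and 0.00015 and 0.035 (day 6). With both drugs on day 6, risers had a median of -0.11 with quartiles of -1.50 and 0.91, and fallers one of 0.11 with quartiles of -0.89 and 1.05, while all bright probes had quartiles of -0.46 and 0.36. In iPS cells both classes were low, at -1.14 and -0.83, and in ES cells at -1.02 and -0.75, against -0.29 and -0.28 for all bright probes. Culture medium, line and slide also changed between primary and secondary cells, and their part in these levels was not tested.

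**Figure D2:**
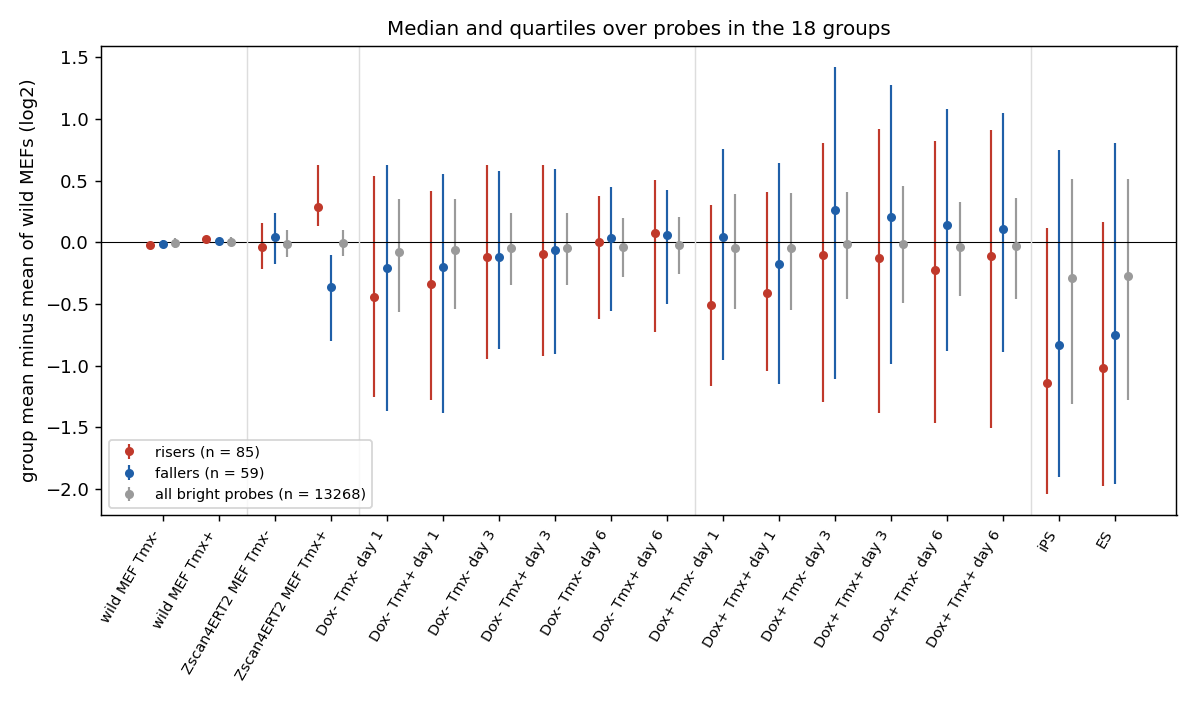
Level of risers (red, n = 85), fallers (blue, n = 59) and all bright probes (grey, n = 13268) in the 18 groups, as the log2 ratio of the group minus that of the wild MEFs. Points are medians over probes and lines run between the quartiles; the classes separate in treated Zscan4ERT2 MEFs, whose values chose them, and overlap in the secondary MEFs, iPS and ES cells.

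The secondary MEFs carry the same kind of fusion and were not used by the rule, so tamoxifen could be tested there with limma on 33099 probes, at an adjusted p under 0.05. All members passed the filter on dim probes. Without doxycycline, averaged over days 1, 3 and 6, no riser and no faller was called, nor was any other probe (0% of all tested). The medians were 0.040 for risers, 0.014 for fallers and 0.013 for bright probes. An unadjusted p under 0.05 in limma was reached by 20 of 85 risers and 10 of 59 fallers. It was reached by 2346 of 13268 bright probes and by 4238 of the 33099 probes tested. The count of 0 rested on 1 array. Without day 6 Dox- Tmx+ replicate 1, limma called 18 risers higher and 1 lower (21.2% and 1.18%, against 9.04% and 7.02% of all probes) and 5 fallers higher and 6 lower. In the matrix, 14.5% of bright probes carried 1 identical value on the 2 arrays of that group, against 0.234% to 2.34% in the other groups. On the matrix values, 1 riser (1.18%) and 1 faller (1.69%) were called, both higher. Of all probes, 0.995% were called higher and 0.511% lower on those values, so these counts are near that share.

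Beside doxycycline, the fallers were lower with tamoxifen in secondary MEFs more often than other probes. Averaged over the days, limma called 23 of 59 fallers lower (39%) and 3 higher (5.08%). Among all probes tested 4.43% were called lower and 8.8% higher, and among bright probes 6.98% and 10.2%. The median faller changed by -0.084 (log2 ratio), against 0.0022 for all probes. Of the 85 risers, 16 were called higher (18.8%) and 5 lower (5.88%), with a median of 0.028. With the primary MEF arrays left out of the fit, 22 fallers were called lower and 4 higher (37.3% and 6.78%). The risers stayed at 16 higher and 5 lower, where 4.72% of all probes were called lower and 9.24% higher. The comparison lies within slides, with tamoxifen at positions 3 and 4 of every slide, so array position and tamoxifen cannot be told apart.

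**Figure D3:**
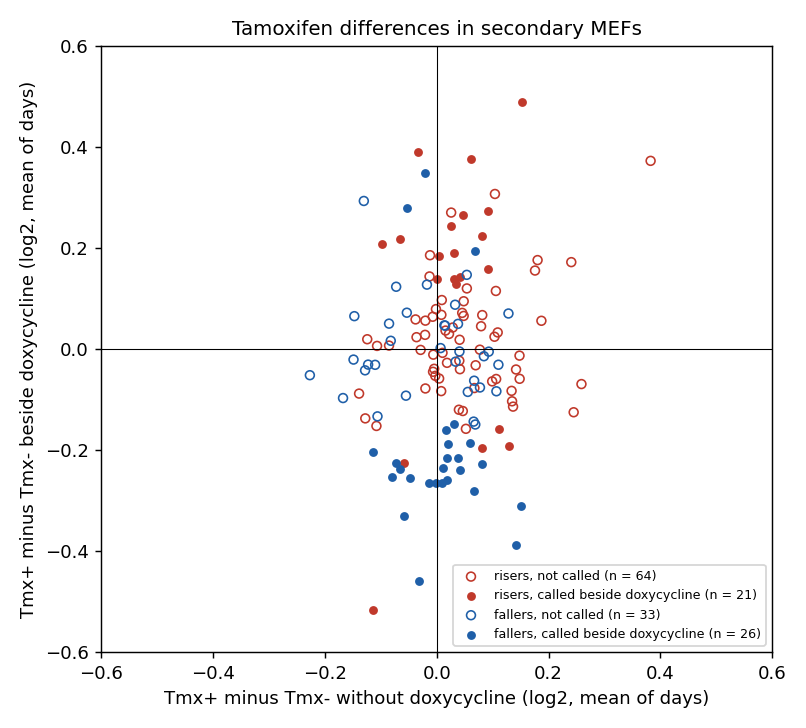
Tamoxifen difference without doxycycline (x axis) against that beside doxycycline (y axis) in secondary MEFs, as log2 ratios averaged over 3 days, 1 point a member. Filled points were called by limma beside doxycycline; 23 of the 26 filled blue points (fallers) and 5 of the 21 filled red points (risers) lie below 0.

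The 23 fallers called lower changed by at least 0.148 in size, with a median of -0.24, and each was lower on all 3 days. The mean of those days picked them, so the shared sign follows in part from the choice. Of the 36 fallers not called lower, 5 were lower on all 3 days. By day, limma called 5 (day 1), 17 (day 3) and 14 (day 6) fallers lower, or 8.47%, 28.8% and 23.7%. Of all probes tested 0.103%, 2.14% and 2.43% were called lower, and of bright probes 0.128%, 3.45% and 3.88%. Without doxycycline the same 23 differed by -0.11 to 0.15, with a median of 0.017. Of the 16 risers called higher, with sizes of 0.129 to 0.490, 15 were higher on all 3 days, again the days that picked them. Of the 69 risers not called higher, 15 were higher on all 3 days. By day, 1, 7 and 9 risers were called higher (1.18%, 8.24% and 10.6%), where 0.275%, 5.2% and 6.81% of all probes and 0.301%, 5.95% and 7.51% of bright probes were. For comparison, the probes that met the rule with the lines exchanged were counted over the mean of days. Of the 19 that were higher in wild MEFs labelled Tmx+, limma called 0 higher and 3 lower (15.8%). Of the 32 that were lower there, it called 0 higher and 2 lower (6.25%). All probes gave 8.8% higher and 4.43% lower, and bright probes 10.2% and 6.98%.

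**Figure D4:**
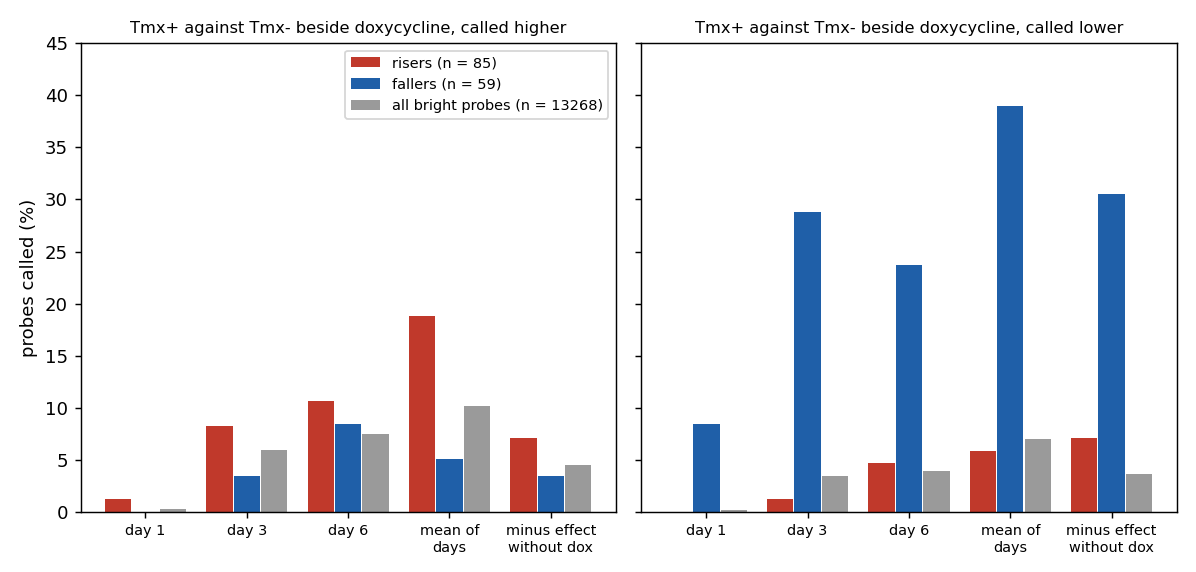
Percentage of risers (red), fallers (blue) and all bright probes (grey) called by limma for tamoxifen beside doxycycline on each day, for the mean of days and for the difference from the effect without doxycycline, with probes called higher on the left and lower on the right. Fallers called lower reach 28.8% on day 3 and 39% for the mean of days, above the grey bars of 3.45% and 6.98%.

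The faller Z00050331-1, among those furthest apart in primary MEFs, read -1.29 and -1.34 (day 1), -0.56 and -0.59 (day 3), and -1.30 and -1.27 (day 6) with doxycycline alone. With both drugs it read -1.57 and -1.50, then -0.89 and -0.90, then -1.55 and -1.52. The pairs stood apart on all of those days, and the mean change was -0.26 ± 0.031 (SE; limma, adjusted p = 9.27e-07). Without doxycycline it differed by -0.014 (limma, adjusted p = 0.877).

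The faller Z00021771-1 had a larger drop. With doxycycline alone it read 1.66 and 1.59 (day 1), 1.51 and 1.45 (day 3), and 1.2 and 0.83 (day 6). With both drugs it read 1.38 and 1.32, then 1.08 and 1.09, then 0.64 and 0.41. Each treated pair lay below its untreated pair, with a mean change of -0.39 ± 0.063 (SE; limma, adjusted p = 9.17e-05). Without tamoxifen, this probe was higher with doxycycline by 2.00 (limma, adjusted p = 2.67e-19), where slide and drug cannot be told apart. Without doxycycline its group means were higher with tamoxifen, at -0.95 against -1.16 (day 1), -0.72 against -0.82 (day 3) and 0.22 against 0.11 (day 6). That difference was not called.

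Among the risers, Z00025437-1 rose furthest. Doxycycline alone gave ratios of -1.04 and -0.92 (day 1), -0.33 and -0.37 (day 3), and -0.67 and -0.86 (day 6). Both drugs gave -0.65 and -0.56, then 0.35 and 0.29, then -0.25 and -0.43. The pairs did not overlap on any day and the mean change was 0.49 ± 0.051 (SE; limma, adjusted p = 2.06e-07). Without doxycycline it differed by 0.15 (limma, adjusted p = 0.367). Z00022867-1 rose by 0.39 ± 0.037 over the mean of days (SE; limma, adjusted p = 4.42e-08). On day 6 it went from 0.46 and 0.61 to 1.05 and 1.06, where it was highest of all groups. In the matrix, Z00022867-1 was 1 of the 7 risers with 1 identical value in a transgenic pair, 2.58 on both treated arrays. Its mean ratio in transgenic primary MEFs was -1.64 untreated and -1.24 treated, short of the limit of 0.498.

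**Figure D5:**
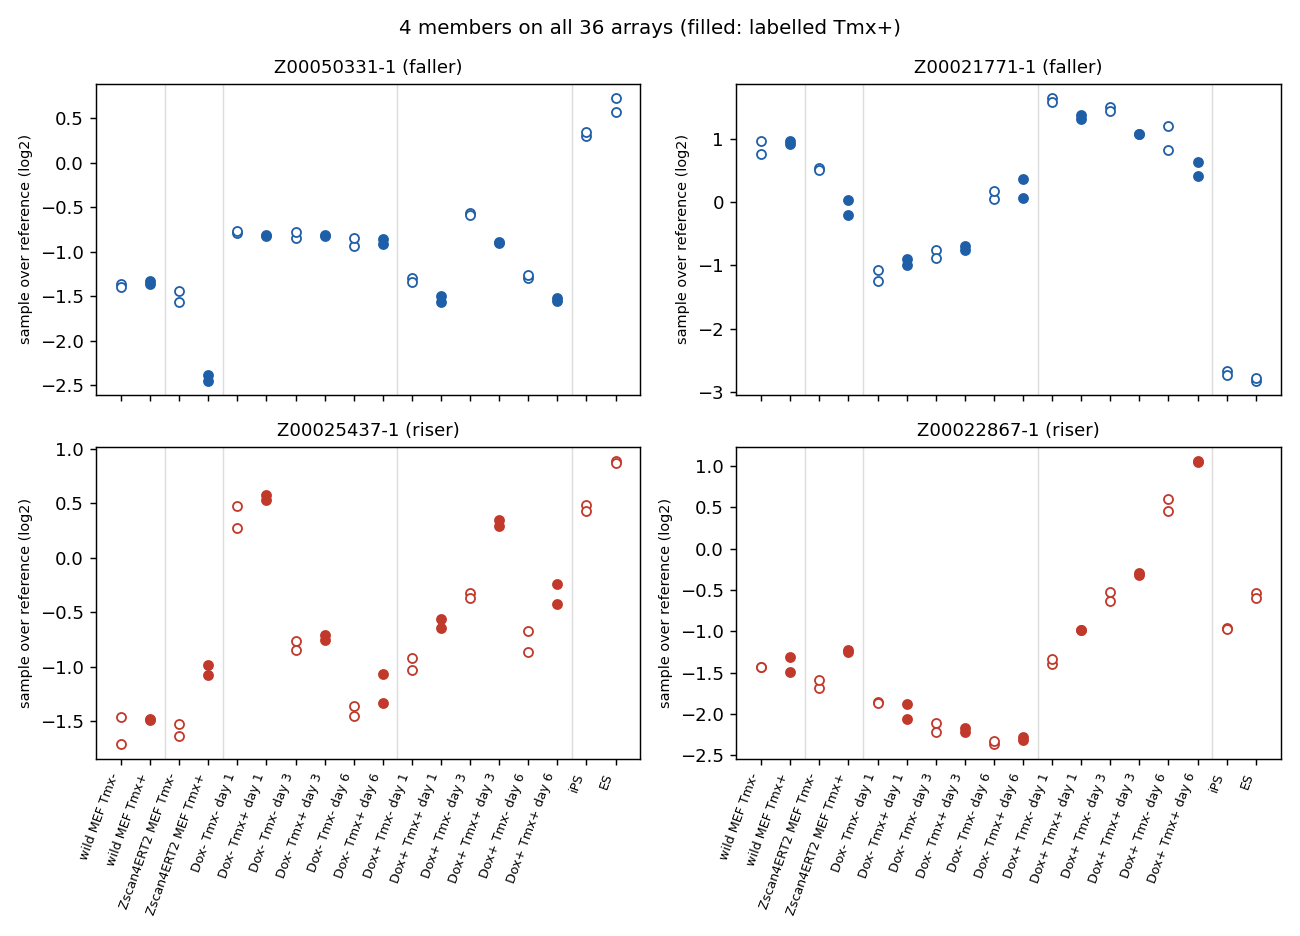
Log2 ratio of sample over reference on each of the 36 arrays for the fallers Z00050331-1 and Z00021771-1 and the risers Z00025437-1 and Z00022867-1, 1 point an array, with arrays labelled Tmx+ filled. The filled pairs stand below the open pairs beside doxycycline for the fallers and above them for the risers, as in treated Zscan4ERT2 MEFs.

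Against the rule, 5 risers were called lower and 3 fallers higher. The riser Z00055704-1, whose log2 ratio differed by 0.35 in transgenic primary MEFs with overlapping arrays, read 5.33 and 5.23 on day 6 with doxycycline alone and 4.63 and 4.32 with both drugs. It fell by 0.52 over the days (SE 0.084; limma, adjusted p = 9.5e-05). Z00023830-1, which shares 29 bases with it as printed above, differed by -0.48. The faller Z00034075-1 read -3.61 and -3.65 on day 6 with doxycycline alone and -3.06 and -3.09 with both, and rose by 0.35 ± 0.052 (SE; limma, adjusted p = 3.06e-05). Its partner Z00070676-1, with 30 shared bases, differed by 0.32, and Z00033919-1, with 22, by 0.22. In the scanner ratio of transgenic primary MEFs, where Z00034075-1 differed by -0.23, those partners differed by -0.081 and -0.0061, much less than the member. Partners of the other members with shared bases lay closer to their members on that scale. For risers, member first, they were 0.69 and 0.69, 0.36 and 0.29, 0.44 and 0.46, 0.60 and 0.64, and 0.35 and 0.23. For the faller Z00058380-1 they were -0.62 and -0.36. In the matrix the same partners of Z00034075-1 had differences of -0.128 and -0.158 in transgenic and -0.036 and -0.070 in wild primary MEFs, so neither met the rule.

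Whether tamoxifen acted differently beside doxycycline was tested as a contrast of its own, the tamoxifen difference with the drug minus that without it. Limma called it below 0 for 18 fallers (30.5%) and above 0 for 2, where 2.14% and 4.4% of all probes and 3.62% and 4.47% of bright probes were called. All 18 were among the 23 called lower beside doxycycline. For risers it was called above 0 in 6 and below 0 in 6 (7.06% each). Among the named probes it was -0.25 for Z00050331-1, -0.53 for Z00021771-1, 0.34 for Z00025437-1 and 0.42 for Z00022867-1. These counts share the array named above, without which limma called 6 risers above and 14 below 0, and 4 fallers above and 23 below, against 8.57% and 7.79% of all probes.

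Members were also counted by whether their scanner ratio met the limit in primary MEFs. Among the 33 fallers that did, 21 were called lower beside doxycycline, against 2 of the 26 others. Among the 30 risers that did, 5 were called higher, against 11 of the other 55. Of the 16 members with 1 identical value in a matrix pair, 3 risers and no faller were called in the direction of the rule. These shares were read off after the calls and were not tested.

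Local backgrounds decided some calls. With the local backgrounds as deposited, in place of a repair of those the scanner software marks as outlying, 17 fallers were called lower (28.8%) and 1 higher beside doxycycline, and 5 risers higher and none lower, where 2.12% and 4.84% of all probes were called lower and higher. For the contrast of the tamoxifen effects, the counts were then 4 risers above and 1 below 0, and 1 faller above and 10 below, where 1.96% and 0.586% of all probes were called. Z00055704-1 and Z00034075-1 missed the threshold for tamoxifen beside doxycycline, at -0.52 and 0.36 (limma, adjusted p = 0.238 and 0.463).

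Most probes tested, members included, differed between cultures with and without doxycycline, which turns on the reprogramming transgenes. Without tamoxifen, over the days, limma called 36 risers higher and 36 lower (42.4% each) and 30 fallers higher and 22 lower (50.8% and 37.3%), where 33.9% of all probes were higher and 32.5% lower, and 39.3% and 40.1% of bright probes. The 23 fallers called lower with tamoxifen were split, with 12 called higher and 9 lower with doxycycline. Changes of at least 2-fold were called upward in 15 risers and 12 fallers and downward in 16 and 8. Of the 33099 probes tested 1999 were called so upward and 1200 downward, and of the 13268 bright probes 863 and 872.

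The riser Z00074466-1 stood from -3.25 to -2.80 in log2 ratio on the 6 arrays without drugs and at 3.88 to 5.13 on the 6 with doxycycline alone, a change of 7.60 ± 0.057 (SE; limma, adjusted p = 1.11e-31). In primary MEFs it lay between these, at -1.68 and -1.57 untreated and -1.09 and -0.81 with tamoxifen in the transgenic line. The riser Z00029853-1 went the other way, from 4.62 to 5.11 down to -1.13 to 1.37, a change of -5.08 ± 0.060 (SE; limma, adjusted p = 6.26e-28). Among fallers, Z00004586-1 rose by 4.17 and Z00074246-1 fell by 2.29 (limma, adjusted p = 3.82e-17 and 1.4e-24). Doxycycline and no doxycycline were on separate slides on each day, so slide and drug cannot be told apart in this comparison.

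In ES cells, against secondary MEFs without drugs, limma called 26 risers higher and 51 lower (30.6% and 60%) and 21 fallers higher and 33 lower (35.6% and 55.9%). All probes gave 34% and 42%, and bright probes 36.2% and 53.2%. Of the 23 fallers called lower with tamoxifen beside doxycycline, 5 were called higher and 18 lower in ES cells. The riser Z00075456-1 was at 1.66 and 1.78 in ES cells and at -3.64 to -2.86 in untreated secondary MEFs, higher by 5.04 ± 0.061 (SE; limma, adjusted p = 4.81e-28). The faller Z00058380-1 was at 0.98 and 0.89 against -6.14 to -5.9, higher by 6.97 ± 0.075 (SE; limma, adjusted p = 7.12e-29), and was bright in primary MEFs too, at 3.63 and 3.64 untreated and 3.45 and 3.39 treated in log10 brightness of the transgenic line. The faller Z00023909-1 changed by -6.07, to -5.40 on both ES arrays, and the riser Z00029853-1 by -5.90, to -1.04 and -0.99 (limma, adjusted p = 7.1e-32 and 1.58e-26). Line and slide differed between ES cells and all of the secondary MEFs, and scan day from those of day 1, and their part was not tested.

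Between iPS and ES cells, which shared 1 slide, limma called 4 risers higher and 17 lower in iPS cells (4.71% and 20%) and 6 fallers higher and 7 lower (10.2% and 11.9%). All probes gave 2.93% and 5.18%, bright probes 3.56% and 7.84%. The riser Z00035235-1 read -3.03 and -3.08 in iPS and -1.78 and -1.74 in ES cells, lower by 1.30 ± 0.049 in iPS cells (SE; limma, adjusted p = 5.06e-15). The riser Z00029853-1 read 0.090 and 0.0081 against -1.04 and -0.99, higher by 1.07 ± 0.10 (SE; limma, adjusted p = 9.55e-08). The faller Z00004852-1 read 0.72 and 0.79 against 0.28 and 0.30, higher by 0.47 (limma, adjusted p = 2e-05), and Z00048802-1 was called higher but was not well above background on either ES array. The count of risers fell from 21 to 12 without iPS replicate 1, and that of fallers from 13 to 7 without ES replicate 2. The counts were 7 for risers and 6 for fallers with local backgrounds as deposited, where 1.25% of all probes were called higher and 2.7% lower. With 1 clone of iPS cells and 1 line of ES cells, clone and cell type cannot be told apart.

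The rule used no sequence. The median GC content was 40% for risers, 45% for fallers and 43.3% for bright probes, with quartiles of 35% and 45%, 41.7% and 49.2%, and 36.7% and 46.7%. The motif AATAAA, searched on the printed strand, was in 16 risers (18.8%), 4 fallers (6.78%) and 9.38% of bright probes, and ATTTA, which does not lie within it, in 5.88%, 3.39% and 8.12%. These are descriptions of letters and not of sites. Of all members, 7 shared at least 20 bases in a row with another probe of the array, in 8 pairs. None of the partners was a member, so no member repeats another by shared letters. Whether several probes read 1 gene could not be told without gene names.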

How the data were processed

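RNA of 36 mouse samples was read on 2-colour Agilent arrays of 43451 spots with 42034 probe spots. Per the file headers, spot intensities came from Agilent Feature Extraction 9.5.1.1. The deposited series matrix holds log10 values of 25030 probes, made by the authors in a way not given in the sources used here. Its medians ran from 2.37 to 2.46, and it correlated with log10 sample-channel intensity at 0.952 to 0.981 over probes, so its direction is that of the sample, while its scaling and centring stay unknown.

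From the intensities, backgrounds were subtracted by normexp (offset 50), with local backgrounds that Feature Extraction marks as outlying replaced by the array's median, and log2 ratios of sample (Cy3) over reference (Cy5) were normalized by loess within arrays. No dyes were swapped. Of 42006 probes, 33099 well above background in both samples of a group were kept. Per array, 54.9% to 77.1% of probes stood well above background, and the number of arrays limits precision. Limma 3.58.1 in R 4.3.3 fitted 1 mean per group over all 36 arrays (18 residual degrees of freedom), with two-sided tests, Benjamini-Hochberg adjustment over all probes kept, and calls at 0.05. The code was tested on simulated data.

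The members and all lists were chosen with earlier results of these data known. By a rule set with the design, named probes are the 2 nearest each side of the limit per class, and the 2 risers and 2 fallers with the largest difference in the matrix and with the largest called difference of iPS from ES cells. All others were chosen after their values were seen, as members called far each way or far apart in primary MEFs. An item withheld from the text is counted but not reported here. Gene lists, cell type markers and named genes that had been planned were not used, because the probes could not be paired with genes. Alternatives were other limits of the rule, backgrounds, normalizations, filters, the matrix, a replicate block, and leaving out each array. Same-numbered replicates did not deviate together in all groups (correlations from -0.264 to 0.529), so the numbers were not taken as pairs. No 2 arrays held identical values.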

Additional observations from a re-analysis of the deposited data

Results flagged for a closer look

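Several probes showed a tamoxifen difference beside doxycycline that was not the one seen without it, by limma's test of that contrast in secondary MEFs. It was called for 12 risers, 6 above and 6 below 0, and 20 fallers, 2 above and 18 below, where 4.4% of all probes were called above and 2.14% below (bright probes 4.47% and 3.62%). With local backgrounds as deposited the counts were 5 and 11, where 1.96% of all probes were called above 0 and 0.586% below. The faller Z00021771-1 stood at -0.529 (log2, limma adjusted p = 0.000328), and the risers Z00025437-1 and Z00022867-1 at 0.337 and 0.424 (limma adjusted p = 0.00423 and 7.16e-06). Against the direction of the rule, the riser Z00055704-1 stood at -0.403 (limma adjusted p = 0.0413) and the faller Z00034075-1 at 0.369 (limma adjusted p = 0.00189). The value of Z00055704-1 lost its call under several alternatives. These values all use the day 6 Dox- Tmx+ group, whose replicate 1 moved the counts.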

How the results depend on the processing

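The tests in secondary MEFs rest on 2 arrays a group. No setting turned the direction of those named fitted differences that were followed under the alternatives. Z00050331-1, the doxycycline difference of Z00021771-1, tamoxifen differences without doxycycline and all differences in primary MEFs were not followed. The set itself depends on its limits. A difference of at least 0.2 gave 37 risers and 26 fallers, and one of 0.1 gave 253 and 177. Allowing 0.1 in wild MEFs gave 130 risers, and 0.025 gave 42 risers and 32 fallers. Without the brightness minimum there were 332 and 234. The rule on scanner ratios found 46 risers, 30 of them members. Leaving out 1 array gave 69 to 152 risers and 48 to 97 fallers.

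With local backgrounds as deposited, limma called 5 risers for tamoxifen beside doxycycline, 5 risers and 11 fallers for the contrast of the tamoxifen effects, and 7 and 6 for iPS against ES cells. Of all probes, 4.84%, 1.96% and 1.25% were then called higher and 2.12%, 0.586% and 2.7% lower, in that order. On matrix values it called 1 riser and 1 faller for tamoxifen without doxycycline, both higher, where 0.995% of all probes were called higher. It called 20 fallers for iPS against ES cells on those values, 9 higher and 11 lower (15.3% and 18.6%), where 3.8% and 6.83% of all probes were. On Feature Extraction's own ratio it called 7 risers for the contrast of effects, 5 above and 2 below 0 (5.88% and 2.35%), where 2.05% and 1.87% of all probes were. Leaving out 1 array in turn gave 0 to 19 risers and 0 to 11 fallers for tamoxifen without doxycycline, 15 to 20 and 22 to 27 beside it, 9 to 20 and 18 to 27 for the contrast, and 12 to 15 and 7 to 11 for iPS against ES cells. The share of all probes called also moved with the array left out, and is not set beside these ranges. The causes were not tested. Slide as a block was not run, since it could not be fitted beside the groups. With the replicate number as a block, 22 risers and 26 fallers were called for tamoxifen beside doxycycline, 12 and 20 for the contrast, 72 and 52 for doxycycline, 19 and 13 for iPS against ES cells, 77 and 54 for ES cells against secondary MEFs, and 0 and 0 without doxycycline, so the block moved no count by over 1.5 times. With that block, 8.84% of all probes were called higher and 4.39% lower for tamoxifen beside doxycycline, and 4.43% and 2.11% for the contrast. The shares were 33.9% and 32.4% for doxycycline, 2.94% and 5.13% for iPS against ES cells, and 34% and 42% for ES cells against secondary MEFs. Of the named values that were followed under the alternatives, 406 stayed on their side of the threshold and 24 lost their call.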
